A study of Mus musculus with 24 samples.

Results

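*Ptprf*, *Adgrg2*, *Pde3a* and *Stk32b* are 4 of the 55291 gene symbols counted by RNA-seq in mouse C2C12 myoblasts with reduced SWI/SNF subunits. They were chosen on these same measurements. Each differed at least 16-fold from the scrambled shRNA (scr) control in every knockdown (KD) and every treatment, *Stk32b* being lower and the other 3 higher. Of 13627 genes tested in all 9 comparisons with scr, 12 were past 16-fold on the fitted scale in each (0.0881%), 11 of them higher and 1 lower. The 8 others belong mostly to the extracellular matrix and Wnt signalling and are not described here. Because levels against scr selected the 4 genes, those levels are given as a description, without a test.

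C2C12 is an established mouse myoblast line. Per the study's methods, cells were transduced with shRNA against *Baf180* (*Pbrm1*, a PBAF subunit), *Baf250a* (*Arid1a*, a cBAF subunit, written Baf250 in the sample labels) or *Brd9* (an ncBAF subunit), or with the scr shRNA. Each of the 4 cell lines was left without added metal (NT), given 100 µM CuSO4 or given 50 µM ZnSO4, with 2 replicates in each of the 12 conditions and 24 libraries in all. The methods list a pair of shRNAs for each subunit, and which of them made the sequenced cells is not given in the sources used here. The 9 comparisons share the 6 scr libraries, and the study lists 1 scr shRNA. A property of these control cells and an effect common to the 3 KDs therefore cannot be told apart. The labels describe primary myoblasts and transfected cells where the methods describe transduced C2C12 cells, and a treatment tag in the labels contradicts the sample titles, by which the libraries were grouped.

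SWI/SNF complexes use ATP to move or evict nucleosomes, and the PBAF, cBAF and ncBAF forms differ in a few subunits that steer them to different sites. The 4 genes encode unrelated signalling proteins. *Ptprf* encodes LAR, a receptor-type tyrosine phosphatase whose extracellular part resembles cell adhesion molecules and whose intracellular part binds liprins and TRIO. *Adgrg2* encodes an adhesion G protein-coupled receptor, known best from the epithelium of the male reproductive tract. *Pde3a* encodes a phosphodiesterase that degrades cAMP and is inhibited by cGMP, known from heart muscle, vascular smooth muscle, platelets and oocytes. *Stk32b* encodes a YANK-family serine/threonine kinase, about which little is known.

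The genes lie on 4 chromosomes (GRCm38, GENCODE M21). *Ptprf* is at chr4:118208213-118291405 on the minus strand, *Adgrg2* at chrX:160390690-160498070 on the plus strand, *Pde3a* at chr6:141249269-141507448 on the plus strand and *Stk32b* at chr5:37446825-37717171 on the minus strand. RefSeq promoters (GRCm38.p6) were matched for 3 of the 4, all but *Pde3a*. The 220 bases that end 30 bases before each annotated start are shown. The 4 genes were selected for a shift in every KD, *Stk32b* downward, and their products are unrelated. Capitals mark GGGCGG on either strand, the core of the GC box.
Ptprf, chr4:118291428-118291647, minus strand: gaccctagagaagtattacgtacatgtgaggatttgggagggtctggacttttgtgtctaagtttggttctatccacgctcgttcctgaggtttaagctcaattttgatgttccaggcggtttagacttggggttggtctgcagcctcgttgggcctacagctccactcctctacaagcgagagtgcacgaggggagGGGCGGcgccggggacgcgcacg
Adgrg2, chrX:160390440-160390659, plus strand: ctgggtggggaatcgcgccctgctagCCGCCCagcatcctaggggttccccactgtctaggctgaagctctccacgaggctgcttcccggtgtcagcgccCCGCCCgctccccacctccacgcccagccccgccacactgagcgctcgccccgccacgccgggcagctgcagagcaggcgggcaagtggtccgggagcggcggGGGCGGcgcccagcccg
Stk32b, chr5:37717184-37717403, minus strand: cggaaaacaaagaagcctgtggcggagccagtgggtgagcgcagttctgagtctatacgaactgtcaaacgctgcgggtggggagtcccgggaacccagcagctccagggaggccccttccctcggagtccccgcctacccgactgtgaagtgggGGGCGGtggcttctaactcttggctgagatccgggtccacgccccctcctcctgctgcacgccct

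All 3 windows were richer in CpG than most promoters. The observed over expected CpG ratio was 0.811 for *Ptprf*, 0.721 for *Adgrg2* and 0.611 for *Stk32b*, against a median of 0.367 over the windows of 32851 RefSeq promoters. The G and C content was 55.0%, 75.0% and 64.5%, against a median of 51.8%. GGGCGG occurred 1 time in the *Ptprf* window, 3 times in that of *Adgrg2* and 1 time in that of *Stk32b*, and 28.5% of all windows held it. Of 7 further patterns searched on both strands, CANNTG occurred 1 time at *Ptprf* and 2 times at *Adgrg2*, and in 62.1% of all windows. TGCGCNC, the core of the metal response element, occurred in the *Stk32b* window (1 match) and in 10.6% of all windows. The same element on its other reading, TGCACNC, occurred 1 time at *Ptprf*, 1 time at *Stk32b* and in 9.28% of all windows. The TATA box (TATAAA) matched in none of the 3 windows and in 9.95% of all. No match was found either for the AP-1 site TGANTCA, held by 6.12% of all windows, the cAMP response element TGACGTCA, held by 1.14%, or the TEAD site CATTCC, held by 11.4%. All 3 windows thus held GGGCGG, and *Stk32b*, the gene lower in the KDs, had the lowest CpG ratio of the 3. Whether promoter composition bears on the direction of the change was not tested.

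Total counts per library ranged from 12719173 to 75179394 in 23 libraries and fell to 495778 in replicate 2 of *Baf250a* KD with Zn. The 3 targeted genes were each lower in their own KD without metal, with log2 fold changes of -0.76 for *Pbrm1* (edgeR adjusted p = 0.00274), -1.53 for *Arid1a* (adjusted p = 5.31e-08) and -0.76 for *Brd9* (adjusted p = 0.006). All 10 myoblast markers had a median over 1 CPM (counts scaled to a common library size) in scr, *Baf180* KD and *Brd9* KD cells, and 8 did in *Baf250a* KD cells. Their summed level was 3470 to 4721 CPM in the scr libraries, 2489 to 2710 in *Baf180* KD, 2027 to 2254 in *Baf250a* KD and 2484 to 2909 in *Brd9* KD. The 6 smooth muscle markers summed to 6354 to 7373 CPM in *Baf250a* KD and to 1788 to 3393 CPM in all other libraries. Most of that sum was *Acta2* alone, with medians of 2130 CPM in scr and 2415, 6243 and 2083 in *Baf180*, *Baf250a* and *Brd9* KD. *Tagln*, *Cnn1*, *Lmod1* and *Myh11* also had their highest median in *Baf250a* KD. *Smtn* did not, with medians of 138 CPM there and 169 in scr. The 10 neural markers summed to 344 to 415 CPM in scr, 449 to 498 in *Baf180* KD, 59.5 to 80.8 in *Baf250a* KD and 518 to 633 in *Brd9* KD. Most of that sum was *Nefl* alone, with medians of 281, 432, 60.0 and 495 CPM in that order. In each line 3 of the 10 had a median over 1 CPM. The 8 markers of differentiated muscle summed to 81.9 to 114 CPM in scr, 133 to 188 in *Baf180* KD, 65.0 to 82.9 in *Baf250a* KD and 37.7 to 44.5 in *Brd9* KD, and the 7 adipocyte markers to 13.3 to 24.9 CPM over all libraries. Epithelial markers, of interest for *Adgrg2*, summed to at most 9.86 CPM in any library, a value from 5 counts of *Krt19* in the library of lowest total. They summed to at most 3.63 CPM in scr, 3.75 in *Baf180* KD and 2.02 in *Brd9* KD. The 8 endothelial and 8 immune markers summed to at most 6.87 and 6.14 CPM in any library. The part of these differences in the levels of the 4 genes was not tested, and in such bulk libraries fewer cells of a type and less RNA per cell cannot be told apart.

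*Ptprf* was, per kb of exon, the most abundant of the 4 in every KD. Its level in the 6 scr libraries was 1.16 CPM at the lowest, 1.38 at the median and 2.06 at the highest, in CPM scaled by edgeR's TMM factors. In *Baf180* KD the lowest, median and highest levels were 75.4, 84.0 and 110 CPM. In *Baf250a* KD they were 159, 169 and 196 CPM, and in *Brd9* KD 61.4, 65.3 and 82.3 CPM. The *Baf250a* KD libraries lay above all libraries of the other 2 KDs. The share of all genes that lie apart in this way was not counted. Without metal the scr replicates held 33 and 30 counts of this gene, against 1965 and 1831 in *Baf180* KD, 4304 and 3421 in *Baf250a* KD and 1250 and 950 in *Brd9* KD. The ratio of scaled counts over scr was 49.1 (95% exact counting interval 38.3 to 64.0), 99.1 (77.3 to 129) and 38.6 (30.1 to 50.5) in that order. Per kb of exon, *Ptprf* stood above 33.8% of detected genes in scr cells without metal and above 78.7%, 88.1% and 73.2% in *Baf180*, *Baf250a* and *Brd9* KD.

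*Adgrg2*, the adhesion receptor, went from near absence to a low level. The 6 scr libraries held 9 counts in all, 2 of them none, and its level there ran from 0 to 0.151 CPM with a median of 0.031. Its lowest, median and highest levels were 2.02, 3.38 and 3.95 CPM in *Baf180* KD, 1.97, 4.81 and 6.54 in *Baf250a* KD and 1.17, 1.44 and 1.87 in *Brd9* KD. The *Brd9* KD libraries thus lay below all libraries of the other 2 KDs, a separation whose share over all genes was not counted. The value of 1.97 CPM is 1 count in the library of lowest total. With 1 count in the pair of scr libraries without metal, the ratios over scr have wide counting intervals, 125 (22.05 to 4957) in *Baf180* KD, 193 (34.3 to 7658) in *Baf250a* KD and 65.3 (11.3 to 2622) in *Brd9* KD. With Zn, where the scr pair held 7 counts, the ratios were 44.9 (21.1 to 114), 47.2 (21.2 to 124) and 20.8 (9.40 to 54.3).

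*Pde3a*, the cAMP phosphodiesterase, had overlapping levels in the 3 KDs. The scr libraries held 0 to 7 counts, or 0, 0.138 and 0.182 CPM at the lowest, median and highest. The corresponding levels were 4.54, 5.27 and 6.28 CPM in *Baf180* KD, 5.42, 6.74 and 8.48 in *Baf250a* KD and 5.88, 6.47 and 7.47 in *Brd9* KD. The 3 KD ranges overlapped one another. Without metal the ratio over scr was 36.1 (16.4 to 99.3) in *Baf180* KD, 53.0 (24.2 to 145) in *Baf250a* KD and 40.0 (18.1 to 110) in *Brd9* KD.

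*Stk32b*, the kinase, was present in scr cells and close to 0 in every KD. Its lowest, median and highest levels there were 4.64, 6.98 and 8.60 CPM, from 99 to 637 counts a library. They were 0.122, 0.213 and 0.289 CPM in *Baf180* KD, 0, 0.106 and 0.278 in *Baf250a* KD and 0.067, 0.101 and 0.155 in *Brd9* KD. No KD library held more than 6 counts, and the 3 KDs overlapped at this floor. Without metal the level in scr was 32.5 times (17.4 to 68.6) that in *Baf180* KD, 65.6 times (27.8 to 204) that in *Baf250a* KD and 59.9 times (23.1 to 221) that in *Brd9* KD. Per kb of exon it stood above 59.2% of detected genes in scr cells without metal and above 21.3%, 12.6% and 10.2% in the 3 KDs.

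**Figure D1:**
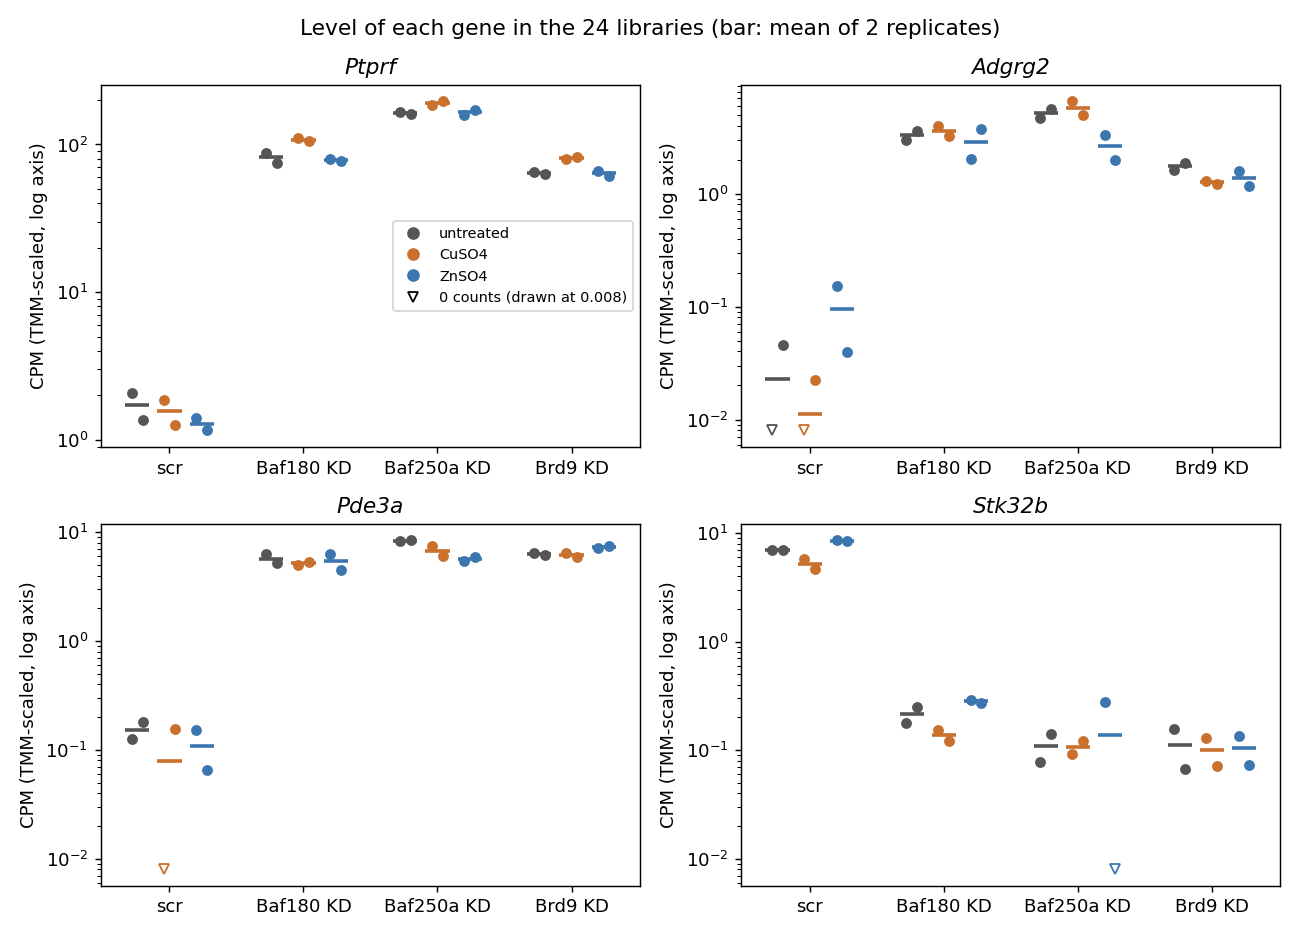
Level of each gene in the 24 libraries, in TMM-scaled CPM on a log axis, by cell line and treatment, with a bar at the mean of 2 replicates and open triangles for libraries with 0 counts. In each panel the 18 KD libraries lie apart from the 6 scr libraries, which follows from the selection. Among the KDs *Ptprf* is highest in *Baf250a* KD, with 159 to 196 CPM.

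Over the 36 combinations of gene, KD and treatment, all 36 ratios of scaled counts were over 16, from 20.8 for *Adgrg2* in *Brd9* KD with Zn to 363 for the same gene in *Baf250a* KD with Cu. That all are over 16 follows from the selection. The lower end of the counting interval was under 16 in 4 of them, so counting error leaves their side of the threshold undecided. They were *Adgrg2* in the 3 treatments of *Brd9* KD and *Stk32b* in *Baf250a* KD with Zn (31.4, 12.2 to 115). These intervals cover counting error only, not the spread between cultures or the selection. They therefore do not show that the other ratios pass 16. On the fitted log2 scale the smallest of the 9 differences was 5.26 for *Ptprf*, 5.12 for *Pde3a*, -4.92 for *Stk32b* and 4.24 for *Adgrg2*. Leaving out replicate 2 of scr with Zn brought the *Adgrg2* value to 3.15, under the threshold of 4. Leaving out replicate 1 brought it to 5.03. The gene just inside the threshold was *Dkk3* (4.10), and the gene just outside was *Adgrl4* (3.93), itself an adhesion G protein-coupled receptor like *Adgrg2*.

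The selection compared each KD with scr, so the KDs can be compared with one another by a test. Of the 4 genes, 3 passed the filter on low counts and *Stk32b* did not, since it was near 0 in every KD. *Ptprf* was lower in *Baf180* KD than in *Baf250a* KD (log2 fold change -0.95, SE 0.06, adjusted p = 1.04e-09) by edgeR's test over the 12 libraries of both lines, with treatment as a block. It was higher in *Baf180* KD than in *Brd9* KD by 0.33 (SE 0.05, edgeR adjusted p = 4.82e-05) and in *Baf250a* KD than in *Brd9* KD by 1.32 (SE 0.06, edgeR adjusted p = 2.17e-12). *Adgrg2* followed the same order, with log2 differences of -0.55 (SE 0.16, edgeR adjusted p = 0.0106) for *Baf180* against *Baf250a* KD, 1.15 (SE 0.18, adjusted p = 7.41e-05) for *Baf180* against *Brd9* KD and 1.74 (SE 0.18, adjusted p = 3.26e-07) for *Baf250a* against *Brd9* KD. *Pde3a* was lower in *Baf180* KD than in *Baf250a* KD (-0.37, SE 0.12, edgeR adjusted p = 0.0203) and than in *Brd9* KD (-0.31, SE 0.10, adjusted p = 0.0268). Its difference between *Baf250a* and *Brd9* KD was 0.12 (SE 0.12, edgeR adjusted p = 0.424). So 3, 3 and 2 of the 3 genes tested passed in the 3 comparisons, in which 44.7%, 40.8% and 54.1% of all tested genes passed, and differences of this kind between the lines were common.

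These calls differed in how firm they were. The *Pde3a* difference between *Baf180* and *Brd9* KD lost its call without any 1 of 6 single libraries and in the untreated libraries alone (-0.16, adjusted p = 0.649, edgeR), where *Adgrg2* lost it too (0.91, adjusted p = 0.0685, edgeR). The *Pde3a* call was also lost with every gene of at least 1 count kept (-0.28, adjusted p = 0.0682, edgeR) and without the Zn libraries (-0.21, adjusted p = 0.190, edgeR). *Adgrg2* between *Baf180* and *Baf250a* KD also missed the threshold in the untreated libraries alone (-0.62, adjusted p = 0.0552, edgeR). For *Pde3a* between *Baf180* and *Baf250a* KD, replicate 2 of *Baf180* KD without metal and replicate 1 of *Baf250a* KD with Cu each decided the call (adjusted p = 0.0596 and 0.0592 without them, edgeR). The 3 *Ptprf* differences and the 3 of *Adgrg2* kept their calls without each library in turn.

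Within a cell line, 1 response of these genes to a metal was called. The filter left *Ptprf*, *Adgrg2* and *Pde3a* in each KD and *Ptprf* and *Stk32b* in scr, which gave 22 tests over the 8 metal responses. With edgeR 1 of the 22 passed, and 6 had an unadjusted p under 0.05. *Ptprf* rose with Cu in *Baf180* KD, from 88.1 and 75.4 CPM without metal to 110 and 105 CPM with Cu (log2 fold change 0.36, SE 0.09, edgeR adjusted p = 0.0272), where 13.8% of all tested genes were called. The call was lost with a correction for GC content and transcript length (0.27, adjusted p = 0.0875, edgeR), and *Ptprf* exons hold 58.1% G and C against a median of 49.2% over tested genes. It was also lost without replicate 1 of the Cu pair (adjusted p = 0.166, edgeR) and without replicate 2 of the untreated pair (adjusted p = 0.242, edgeR). With Cu in the other cells the *Ptprf* values were 0.22 (SE 0.09, edgeR adjusted p = 0.353) in *Baf250a* KD, 0.26 (SE 0.07, adjusted p = 0.203) in *Brd9* KD and -0.17 (SE 0.36, adjusted p = 0.882) in scr, in comparisons where 1.27%, 0.274% and 0.0333% of genes were called.

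With Zn none of the 11 tests was called by edgeR or by DESeq2 (2 had an unadjusted p under 0.05 with edgeR), while 0.0197% of tested genes were called in *Baf180* KD, 15.9% in *Baf250a* KD, 0.0334% in *Brd9* KD and 17.6% in scr. In *Baf250a* KD with Zn, *Pde3a* stood at 5.42 and 5.91 CPM against 8.30 and 8.48 CPM without metal (log2 fold change -0.62, SE 0.22, edgeR adjusted p = 0.0612). Without replicate 2, the library of lowest total, where this gene had 3 counts, it passed (-0.63, edgeR adjusted p = 0.0297). *Adgrg2* in the same comparison had a value of -0.67 (SE 0.29, edgeR adjusted p = 0.117). *Stk32b* in scr cells stood at 7.01 and 6.96 CPM without metal, 5.79 and 4.64 with Cu (log2 -0.45, SE 0.17, edgeR adjusted p = 0.476) and 8.60 and 8.37 with Zn (0.30, SE 0.16, adjusted p = 0.224). Neither difference passed over all genes.

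Whether the metal responses of *Ptprf*, *Adgrg2* and *Pde3a* differed between KDs was tested in 1 fit of all 24 libraries. *Stk32b* entered that fit through its scr level alone and was near 0 in every KD, so its 6 tests are left aside. None of the 18 differences of response of the other 3 genes passed with edgeR or with DESeq2, and 1 had an unadjusted p under 0.05. That was *Pde3a* with Zn in *Baf250a* against *Brd9* KD (-0.80, SE 0.34, edgeR adjusted p = 0.314), a contrast in which 0.0787% of all genes passed. For Cu in *Baf180* against *Baf250a* KD 0.00605% passed. In the 4 remaining contrasts 0 genes passed (0%) with edgeR and 0 with DESeq2, and between 556 and 918 of 16524 had an unadjusted p under 0.05.

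**Figure D2:**
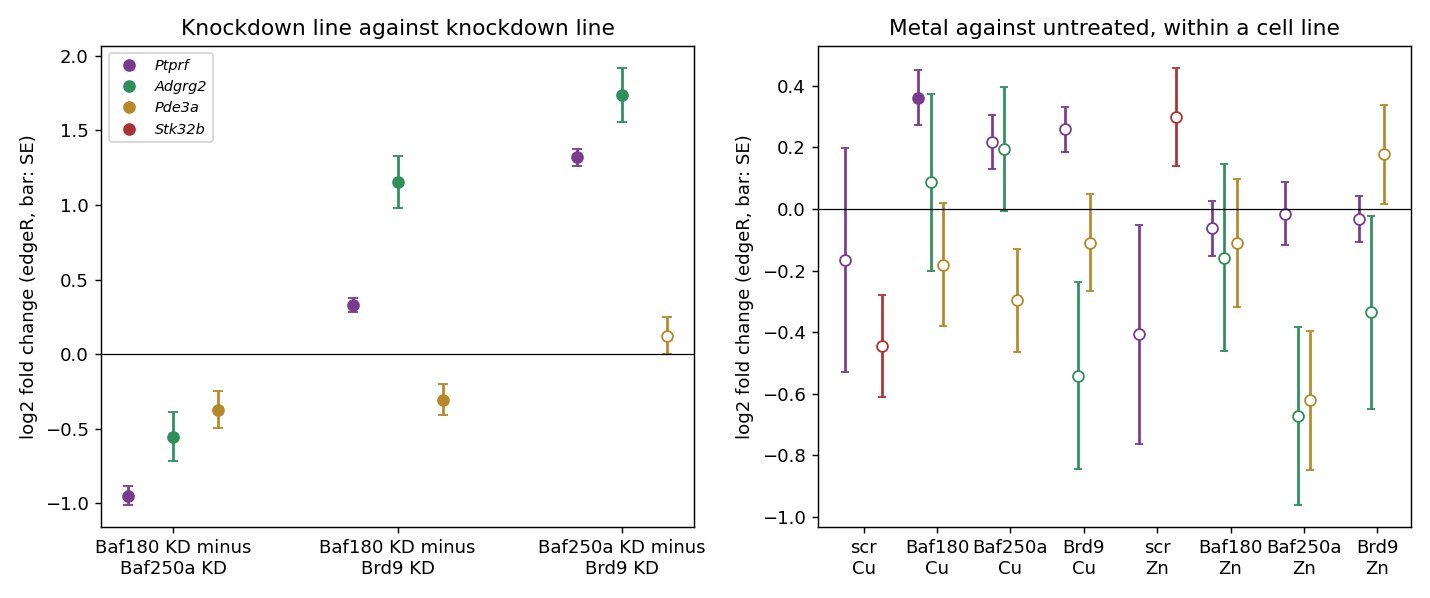
Log2 fold changes (edgeR, bars are SE) of the 4 genes between KD lines on the left and for Cu or Zn against untreated cells of the same line on the right, with filled points for an adjusted p under 0.05 and no point where the low-count filter removed the gene. On the left 8 of 9 points are filled, from -0.95 to 1.74, and on the right 1 of 22, *Ptprf* with Cu in *Baf180* KD at 0.36.

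The relatives and signalling partners of the 4 genes moved in both directions without metal. Of 75 listed genes, 27 of 44 tested passed edgeR's test against scr in *Baf180* KD (14 higher, 13 lower), 38 of 47 in *Baf250a* KD (23 higher, 15 lower) and 15 of 42 in *Brd9* KD (6 higher, 9 lower). That is 61.4%, 80.9% and 35.7% of the tested genes, where 41%, 57.8% and 29.2% of all genes passed. In *Brd9* KD the count of 15 fell to 6 without replicate 2 of the untreated KD pair. A gene near 0 in scr enters these tests only through the KD where it is present.

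Of 7 tested LAR-family phosphatases and intracellular partners, 1 was higher and 3 lower in *Baf180* KD, 1 higher and 4 lower in *Baf250a* KD, and 0 higher and 2 lower in *Brd9* KD. The shares called were 57.1%, 71.4% and 28.6%, beside 41%, 57.8% and 29.2% of all tested genes. The median log2 fold changes of these 7 were -0.47, -0.69 and -0.27, against 0.028, 0.0030 and 0.0096 over all tested genes. The *Ptprf* paralog *Ptprs* fell, with log2 fold changes of -0.66, -0.86 and -0.54 in *Baf180*, *Baf250a* and *Brd9* KD (edgeR adjusted p = 0.00053, 9.47e-06 and 0.00534). The other paralog, *Ptprd*, fell (-0.75 and -2.22) in *Baf180* and *Baf250a* KD (edgeR adjusted p = 0.000448 and 1.29e-08) and had a value of -0.08 in *Brd9* KD (adjusted p = 0.63). *Trio*, which encodes a guanine nucleotide exchange factor that binds LAR, fell in all 3, with -0.91, -1.36 and -0.48 (edgeR adjusted p = 5.83e-05, 1.29e-07 and 0.00685). The liprin *Ppfibp1* rose by 0.44 in *Baf180* KD and 0.96 in *Baf250a* KD (edgeR adjusted p = 0.00595 and 4.65e-06).

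Among the other adhesion G protein-coupled receptors, 13 of 29 were tested. In *Baf180* KD 7 were higher and 3 lower, in *Baf250a* KD 8 and 3, and in *Brd9* KD 5 and 2, with median log2 fold changes of 0.88, 0.49 and 0.38. The shares called were 76.9%, 84.6% and 53.8%, beside 41%, 57.8% and 29.2% of all tested genes. *Adgrl4*, a latrophilin-like receptor known from endothelium, had 0 counts in both untreated scr libraries, and 60, 121 and 53 counts in the untreated *Baf180*, *Baf250a* and *Brd9* KD pairs. *Adgrl2*, a latrophilin, rose by 3.07, 4.06 and 1.76 (edgeR adjusted p = 9.96e-09, 5.4e-11 and 9.03e-05). *Adgrf5* rose by 2.35 and 4.25 in *Baf180* and *Baf250a* KD (edgeR adjusted p = 0.00283 and 6e-07) and had a value of 1.58 in *Brd9* KD (adjusted p = 0.0779). Of the same subfamily as *Adgrg2*, *Adgrg3* fell (-0.60) in *Baf180* KD (edgeR adjusted p = 0.0127) and had values of 0.20 and 0.38 in *Baf250a* and *Brd9* KD (adjusted p = 0.277 and 0.0867). *Adgrg1*, a receptor for collagen III and transglutaminase 2, fell, with -3.89, -4.96 and -1.81 (edgeR adjusted p = 4.51e-09, 9.95e-11 and 6.57e-05). *Adgrg6*, known from Schwann cell myelination, fell (-0.45 and -1.30) in *Baf180* and *Baf250a* KD (edgeR adjusted p = 0.00447 and 2.69e-07), with -0.14 in *Brd9* KD (adjusted p = 0.274).

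Genes of the cAMP pathway of *Pde3a* were called in both directions. Of the other phosphodiesterases 5 rose and 5 fell of 12 tested in *Baf180* KD, 7 and 5 of 15 in *Baf250a* KD, and 1 and 3 of 11 in *Brd9* KD, with medians of 0.04, 0.34 and -0.09. The shares called were 83.3%, 80.0% and 36.4%, beside 41%, 57.8% and 29.2% of all tested genes. The close paralog *Pde3b*, present in all cells, rose by 0.77 in *Baf180* KD (edgeR adjusted p = 0.00112), with values of 0.34 and 0.43 in *Baf250a* and *Brd9* KD (adjusted p = 0.0505 and 0.059). Some phosphodiesterases were seen in part of the KDs. *Pde8b* had 3 counts in the untreated scr pair, 86 in *Baf180* KD, 26 in *Baf250a* KD and 4 in *Brd9* KD. *Pde1c*, a calmodulin-stimulated enzyme, had 3 counts in scr, 15 in *Baf180* KD, 256 in *Baf250a* KD and 5 in *Brd9* KD. *Pde7b* and *Pde1a* had 0 in scr, 65 and 30 in *Baf250a* KD, 18 and 6 in *Baf180* KD, and 1 and 0 in *Brd9* KD. Of the adenylyl cyclases and protein kinase A subunits 1 rose and 2 fell of 11 in *Baf180* KD, 7 and 3 of 12 in *Baf250a* KD, and 0 and 2 of 11 in *Brd9* KD. The shares called here were 27.3%, 83.3% and 18.2%. That is under the share of all genes in *Baf180* and *Brd9* KD and over it in *Baf250a* KD. *Adcy3* and *Adcy8* rose in *Baf250a* KD by 1.41 and 2.10 (edgeR adjusted p = 2.59e-05 and 0.000144), and the regulatory subunit gene *Prkar2a* fell in all 3 KDs, with -0.53, -0.66 and -0.39 (edgeR adjusted p = 0.00155, 0.000109 and 0.0165). *Prkar1b* had 2 counts in the untreated scr pair and 49 in *Baf250a* KD. The other YANK kinases were low throughout. *Stk32a* had at most 3 counts in any library, and *Stk32c* had medians of 0.347 CPM in scr and 0.614, 0.136 and 0.415 CPM in the 3 KDs (0.10 in *Baf180* KD, the only KD where it was tested, edgeR adjusted p = 0.901).

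**Figure D3:**
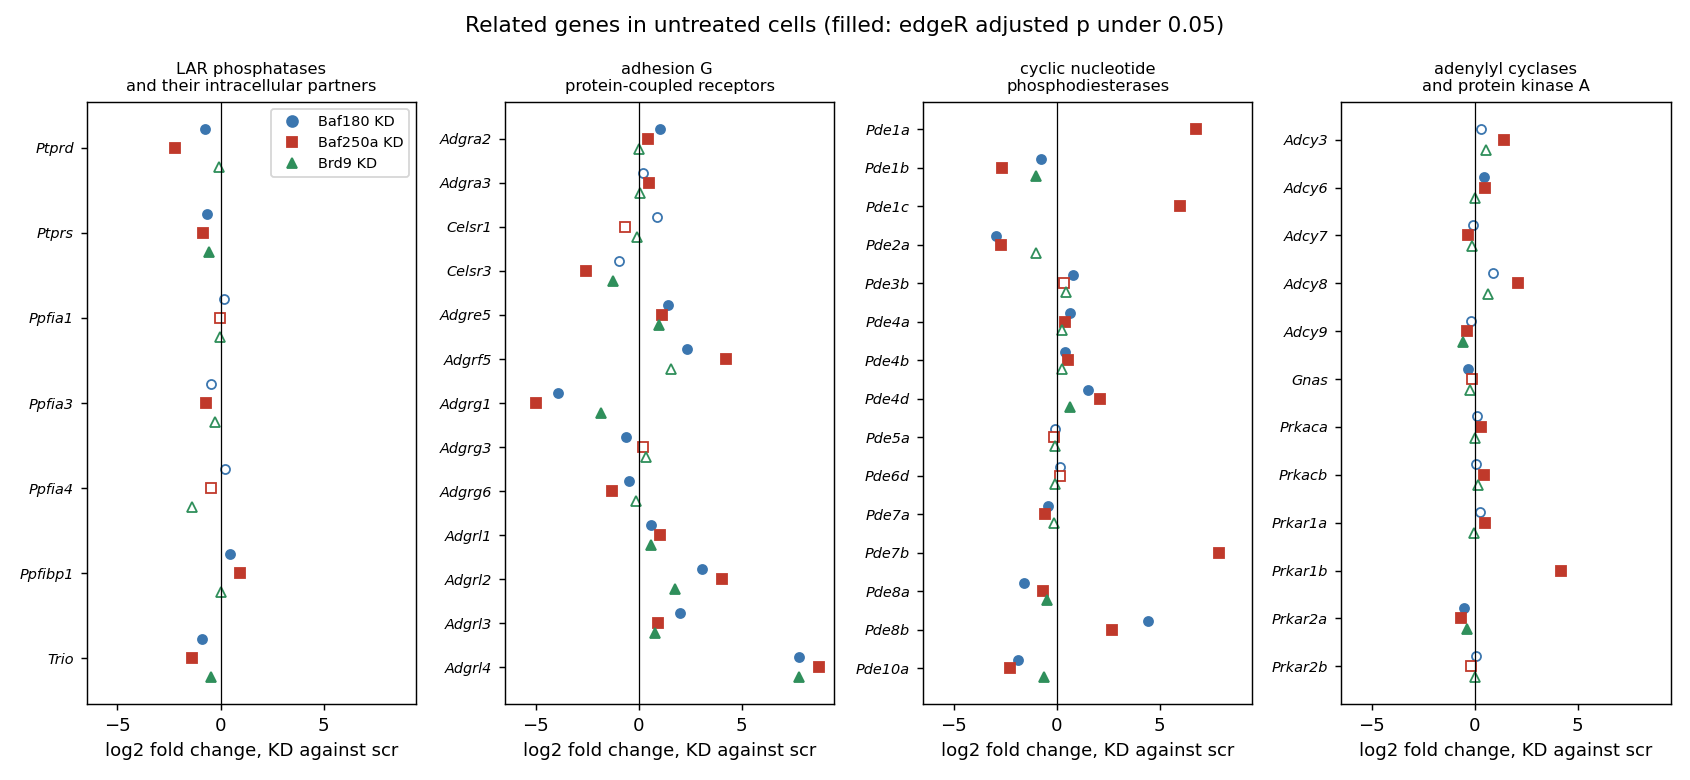
Log2 fold change of each tested related gene in untreated *Baf180*, *Baf250a* and *Brd9* KD against untreated scr, by list, with filled symbols for an edgeR adjusted p under 0.05. Fitted values of genes at or near 0 in scr (*Adgrl4*, *Pde7b*, *Pde1a*, *Pde1c*, *Pde8b*, *Prkar1b*) depend on the prior count. The medians of the LAR list are -0.47, -0.69 and -0.27, and phosphodiesterases lie on both sides of 0.

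Genes around the loci were counted beside all tested genes. That most of them moved less than the 4 genes follows from the choice of these genes for differences of at least 16-fold. Within 500 kb of a start, 25 neighbours were tested in *Baf180* KD and 14 passed (56.0%), 20 of 26 passed in *Baf250a* KD (76.9%) and 6 of 24 in *Brd9* KD (25.0%), beside 41%, 57.8% and 29.2% of all genes. Of the 15 tested neighbours of *Ptprf*, which was higher, 9 were lower and 0 higher in *Baf180* KD, 10 lower and 1 higher in *Baf250a* KD, and 4 lower and 0 higher in *Brd9* KD. Of all tested genes, 3217 were called higher and 2870 lower in *Baf180* KD, 4327 and 4320 in *Baf250a* KD, and 2157 and 2008 in *Brd9* KD. Whether the direction of the *Ptprf* neighbours is particular to this locus was not tested. The largest change among the *Ptprf* neighbours was 1.60 on the log2 scale. Those called in all 3 KDs were *Kdm4a* (-0.48, -0.28 and -0.31), a histone demethylase gene and the nearest of them at 111 kb, *Ipo13* (-1.09, -0.87 and -0.60), *Atp6v0b* (-0.72, -0.61 and -0.58) and the glycine transporter gene *Slc6a9* (-0.83, -1.60 and -0.97). Near *Stk32b*, which was lower, *Nsg1* rose in all 3 KDs (2.75, 4.76 and 2.61), and *Crmp1* rose in *Baf180* and *Brd9* KD (1.67 and 2.03) and fell in *Baf250a* KD (-1.65). The closest tested neighbour of *Stk32b*, the homeobox gene *Msx1*, named after its values were seen, had log2 values of 0.19, 0.52 and -0.35 with a call in *Baf250a* KD (edgeR adjusted p = 0.0176). Around *Adgrg2* 4 neighbours were tested, with log2 fold changes of at most 2.68 in size, and *Pde3a* had no tested neighbour.

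**Figure D4:**
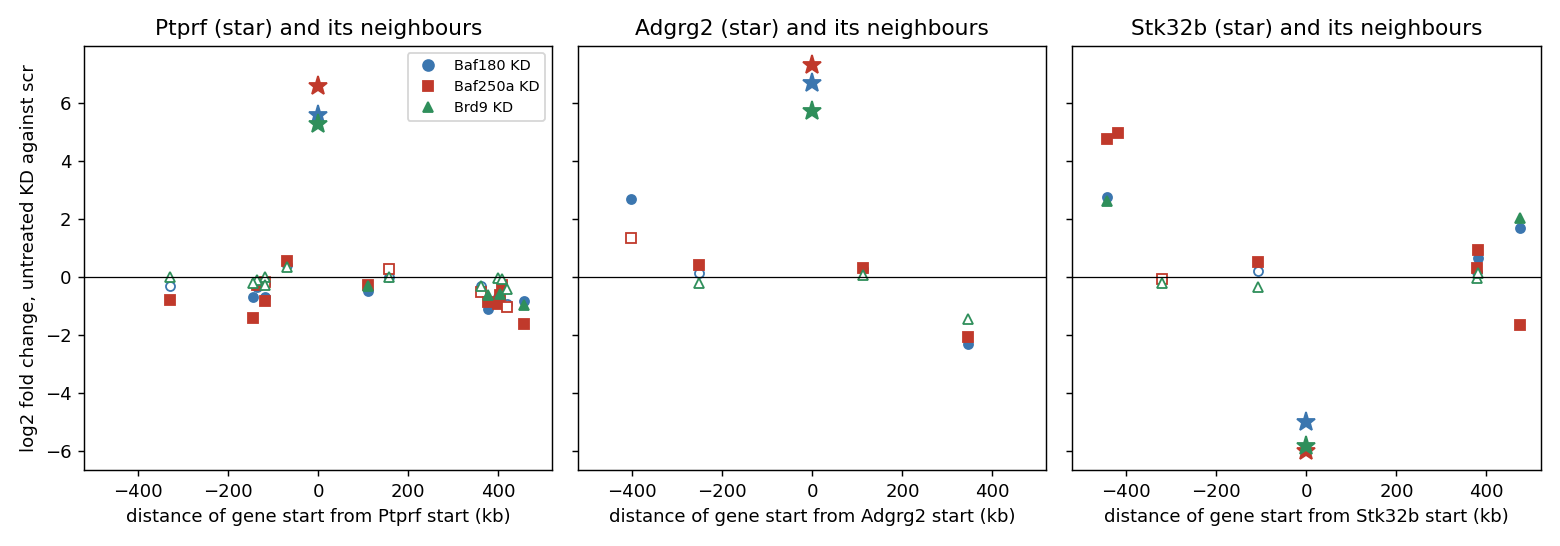
Log2 fold change against untreated scr (vertical axis) of *Ptprf*, *Adgrg2* and *Stk32b* (stars) and of their tested neighbours, by distance between gene starts in kb along the direction of transcription, with filled symbols for an edgeR adjusted p under 0.05. The *Ptprf* neighbours stay within 1.60 of 0, and *Nsg1*, 443 kb from the *Stk32b* start, lies opposite to *Stk32b*. The genes shown as stars were selected to lie far from 0.

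At the *Pde3a* locus 3 other annotated transcripts, named after their values were seen, had few or no counts in scr and more in each KD. The antisense gene *Gm28523* across the *Pde3a* start had 0 counts in the 6 scr libraries, 19 in *Baf180* KD, 8 in *Baf250a* KD and 10 in *Brd9* KD. *Gm10400* and *Gm43958*, on the sense strand within the gene, had 2 and 0 counts in scr against 10 to 31 in each KD. Their reads on the sense strand cannot be told apart from unspliced *Pde3a* RNA, which rRNA-depleted libraries also hold.

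By library, the 4 genes were alike mainly in the contrast of scr with KD. Over all 24 libraries the Pearson correlations of log2 CPM between pairs of the 3 higher genes were 0.939 to 0.969, and those with *Stk32b* -0.970 to -0.901. Over the 18 KD libraries alone *Adgrg2* and *Ptprf* had 0.719, and every other pair lay between -0.372 and 0.232. The selection set all KD libraries apart from scr, so strong correlations over the 24 libraries follow from it. The libraries also share cell lines and controls, so these values describe and are not tested. Among 16524 genes over the 24 libraries, the 3 most like *Ptprf* included *Col6a2* (r = 0.990, itself past the selection threshold) and *Galnt18* (0.988). Those most like *Pde3a* were *Gas6*, a ligand of the TAM receptor kinases (0.990), *Galnt18* (0.980) and *Fbln7* (0.973). The 3 most like *Adgrg2* included *Car8* (0.976) and *Sgcd*, which encodes delta-sarcoglycan (0.976). The genes most like *Stk32b* were *Klhl41*, a sarcomere-associated kelch gene (0.963), *Rell1* (0.956) and *Glp1r* (0.956). *Klhl41* had medians of 29.0 CPM in scr and 4.81, 4.46 and 5.02 CPM in *Baf180*, *Baf250a* and *Brd9* KD.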

How the data were processed

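RNA from 24 libraries (4 cell lines, 3 treatments, 2 replicates) was depleted of rRNA with RNase H and sequenced as strand-specific libraries. The authors aligned reads to mm10 with STAR, kept unique alignments and used featureCounts for the read pairs of each gene, and the deposited counts are whole numbers, not normalized. Tables of the authors' own comparisons from DESeq2 (log2 fold changes, p-values and adjusted p-values) were also deposited and were not used.

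Counts were analysed in R 4.3.3 with edgeR 4.0.16 (TMM, filterByExpr at its defaults, quasi-likelihood test, Benjamini-Hochberg adjustment over all genes tested, threshold 0.05). A metal response was estimated from the 6 libraries of its line, differences between KD lines on 12 libraries with treatment as a block, differences of responses on all 24, and related and neighbouring genes on the 4 untreated libraries compared. CPM are TMM-scaled, and correlations used their log2 (prior count 2). SE were taken from the fold change and its F statistic. Counting intervals are exact at 95%. The fits were tested on simulated data. The replicates are independent biological replicates per the study's methods, and p-values over 2 of them rest on spread shared across genes.

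The 4 genes, the lists and the tests were chosen with earlier results of these data known. Genes named are the 4 members, up to 4 called genes a list with the largest change in any untreated KD, close paralogs, the 3 genes most correlated with each member (2 of these 12 are not reported here), and neighbours called in all 3 KDs. Alternatives were DESeq2 1.42.0, RLE size factors, total-count scaling, no filter beyond 1 count, a replicate block, an offset for GC content and length (spline with 5 degrees of freedom), other sets of libraries, and leaving out each library. Positions and exon lengths come from GENCODE M21, matched for 53292 of 55291 symbols. Protein sequences were not used here.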

Additional observations from a re-analysis of the deposited data

How the results depend on the processing

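Leaving out 1 library left 2 to 3, 2 to 3 and 2 to 2 of the genes called in the comparisons of *Baf180* with *Baf250a*, *Baf180* with *Brd9* and *Baf250a* with *Brd9* KD, 0 to 1 for Cu in *Baf180* KD and for Zn in *Baf250a* KD, and 0 for the other metal responses and the differences of response. Called related genes ranged over 19 to 29, 30 to 39 and 6 to 16 in *Baf180*, *Baf250a* and *Brd9* KD. The smallest differences from scr ranged over 3.15 to 5.03 (*Adgrg2*), 4.91 to 5.43 (*Pde3a*), 4.95 to 5.55 (*Ptprf*) and -4.93 to -4.82 (*Stk32b*).

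Of 125 other recomputed counts and smallest differences, 123 stayed within 1.5 times the count reported or, for a difference, within the replicate SD. A count of 3 called genes that became 2 is among them. That was so between *Baf180* and *Brd9* KD with every gene of at least 1 count kept and without the Zn libraries, where *Pde3a* was lost, and between *Baf180* and *Baf250a* KD in the untreated libraries alone, where *Adgrg2* was lost. In the untreated libraries alone 1 gene was called between *Baf180* and *Brd9* KD, and with the GC content and length offset 0 were called for Cu in *Baf180* KD; the cause was not tested, apart from the fewer libraries. Uncalled values changed sign with that offset, without and with the replicate block: *Adgrg2* with Zn in *Baf180* KD (0.027 and 0.032), *Pde3a* with Cu in *Baf180* KD (0.17 and 0.19), with Cu in *Brd9* KD (0.11 and 0.11) and with Zn in *Baf180* KD (0.089 and 0.095).

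Replicate numbers deviated together unevenly (r from -0.186 to 0.395 over 66 pairs of conditions, over 0.1 in 30), so they were not taken as pairs. With the replicate block 3, 3 and 2 genes were called between KD lines and 1 for Cu in *Baf180* KD. *Ptprf* with Zn in *Baf250a* KD then took a value of 0.0026. DESeq2 called 53 and 192 genes for the differences of response in which edgeR called 1 and 13, none of them the 4.

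Leaving out a library turned the sign of further uncalled values, whose ranges were -0.069 to 0.24 and -0.72 to 0.18 for *Adgrg2* with Cu and Zn in *Baf180* KD, -0.048 to 0.35 with Cu in *Baf250a* KD, -0.33 to 0.12 for *Pde3a* with Zn in *Baf180* KD, and for *Ptprf* -0.47 to 0.18 with Cu in scr, -0.15 to 0.031 with Zn in *Baf180* KD and -0.060 to 0.067 with Zn in *Baf250a* KD. The library of 495778 counts gave 1 count of *Adgrg2* and 3 of *Pde3a*, which limits the Zn values of *Baf250a* KD.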
